A study of Mus musculus with 12 samples.

Results

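Genes of the neural crest and of Schwann cell precursors were followed across the cell types of the mouse superior mesenteric ganglion (SMG), namely Sox10, Foxd3, Sox2, Erbb3, S100b, Zeb2, Tfap2a and Tfap2b. They were taken by gene symbol, with no use of their measured values, and are 8 of the 32286 genes counted. The SMG is a sympathetic ganglion of the abdomen, and neuroblastoma arises there in Th-MYCN mice, which carry human MYCN under the rat tyrosine hydroxylase (Th) promoter and so express it in sympathetic lineage cells. Droplet single-cell RNA sequencing (scRNA-seq, Chromium 3' kit) was done on the SMG of 12 mice of the 129+Ter/SvJcl strain: 1 wild-type (WT) mouse at 3 weeks of age, 10 hemizygous Th-MYCN+/- mice at 3 weeks and 1 Th-MYCN+/- mouse at 6 weeks. The 6-week ganglion was picked because a macroscopic tumor was seen on dissection. The WT and 6-week groups hold 1 mouse each and have no replicate error, so no test was made between conditions.

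Sympathetic neurons, chromaffin cells and Schwann cells all descend from the neural crest, a migratory embryonic population. Crest cells express SOX10, FOXD3 and the AP-2 factors. Part of them become Schwann cell precursors, which follow growing nerves, depend on neuregulin signals received through the receptor ERBB3, keep SOX10 and express S100B as they turn into glia. In the sympathetic branch SOX10 is switched off while AP-2 beta, the product of Tfap2b, continues to be used in noradrenergic neurons and their progenitors.

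The genes lie at the following positions of the mouse genome (build GRCm38, positions of the whole gene). Sox10 is at chr15:79154908-79165240 on the minus strand, Foxd3 at chr4:99656299-99658622 on the plus strand and Sox2 at chr3:34650405-34652461 on the plus strand, within the noncoding gene Sox2ot of the same strand. Erbb3 is at chr10:128567523-128589652 on the minus strand and S100b at chr10:76253853-76261159 on the plus strand, where it overlaps Dip2a on the other strand. Zeb2 is at chr2:44983632-45117395 on the minus strand, overlapped by the antisense gene Zeb2os, and Tfap2a is at chr13:40715302-40738376 on the minus strand, overlapped by 3 antisense genes. Tfap2b is at chr1:19208914-19238576 on the plus strand. Counts of Sox2 could be shared with or lost to Sox2ot, and this was not tested.

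Of the 8 genes, 6 had a promoter in the RefSeq promoter set used (build GRCm38.p6), and Sox10 and Erbb3 had none. The 250 bases before the RefSeq start are shown for Foxd3, Sox2 and S100b, which were higher in glia, and for Tfap2b, which was higher in neuroblasts. Sequences of genes that differed in opposite directions can thus be read side by side. The RefSeq starts are not always those of the gene positions above. The Tfap2b window lies inside the gene interval given there, and the Sox2 window ends some way before the gene start given there. Capitals mark matches on either strand to an E-box (CACGTG, the site of MYC family proteins) or to a SOX motif (ACAAAG or ACAATG). The windows are chr4:99656049-99656298 for Foxd3, chr3:34649745-34649994 for Sox2, chr10:76253586-76253835 for S100b and chr1:19211804-19212053 for Tfap2b, all on the plus strand:
Foxd3: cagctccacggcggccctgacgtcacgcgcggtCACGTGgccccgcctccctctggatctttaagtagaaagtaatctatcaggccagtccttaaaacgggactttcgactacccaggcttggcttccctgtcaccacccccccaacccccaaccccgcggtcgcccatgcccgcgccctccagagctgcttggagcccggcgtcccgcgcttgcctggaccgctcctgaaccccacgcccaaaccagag
Sox2: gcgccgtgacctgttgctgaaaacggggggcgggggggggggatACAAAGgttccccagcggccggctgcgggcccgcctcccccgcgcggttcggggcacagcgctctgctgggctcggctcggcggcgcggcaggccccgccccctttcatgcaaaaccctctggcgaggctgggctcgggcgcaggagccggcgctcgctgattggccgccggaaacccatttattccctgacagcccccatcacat
S100b: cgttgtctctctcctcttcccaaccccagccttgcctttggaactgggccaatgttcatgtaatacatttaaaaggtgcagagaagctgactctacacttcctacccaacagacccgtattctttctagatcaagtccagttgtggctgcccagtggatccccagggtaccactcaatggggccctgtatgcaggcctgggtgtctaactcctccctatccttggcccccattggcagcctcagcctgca
Tfap2b: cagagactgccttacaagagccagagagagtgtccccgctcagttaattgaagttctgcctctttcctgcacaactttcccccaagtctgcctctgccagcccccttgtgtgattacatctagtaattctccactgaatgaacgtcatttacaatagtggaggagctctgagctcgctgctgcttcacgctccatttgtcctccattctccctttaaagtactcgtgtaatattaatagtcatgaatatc
Foxd3 held 1 CACGTG, beginning 217 bases before the start, a match found in 6.02% of 32851 promoter windows of the same length. Sox2 held 1 ACAAAG, beginning 206 bases before the start, and 25.2% of all windows held a SOX motif. The windows of S100b and Tfap2b held no match to these motifs, nor did any of the 4 hold a ZEB E2-box (CACCTG, in 17.2% of all windows) or an AP-2 motif (GCCNNNGGC, in 13.7%). A match is a description of the letters and not of binding.

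The 12 libraries held 1147772 UMIs (unique molecular identifiers, counts of captured RNA molecules) in WT, 4824039 in the 6-week mouse and 1444554 to 6388766 in the 10, with 12011 cells after filtering. Human MYCN was at 0 UMIs in WT (limit for a count of 0, 4.27 UMIs per 1000000 UMIs), at 216 in the 6-week mouse and at 63.6 to 428 in the 3-week Th-MYCN+/- mice except mouse 2, at 8.07. Mouse 2 stood apart in other ways too: 38.7% of its UMIs were in cells, against 61.1% or more elsewhere, and it held 1501 ganglion-like cells but only 12 Schwann-like and 38 neuroblast-like cells. Tests of Schwann-like against other classes are given with and without mouse 2 where members passed the filter only without it. Pooled ganglion-like counts, ratios and shares include it throughout. It supplied 1501 of the 2476 ganglion-like cells of the 10 mice and 21 of their 45 Sox10 UMIs. Between pairs of libraries 94 cell barcodes were shared, against 88.6 expected from the numbers of cells.

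Cell classes were built without the 8 genes, which were left out of clustering and of the marker lists, so their levels are not fixed by how classes were made. Over the 12 mice there were 2924 Schwann-like, 2993 neuroblast-like and 2695 ganglion-like cells, and in the 3-week Th-MYCN+/- mice 2228, 2712 and 2476. All 12 Schwann markers (Fabp7, Sostdc1 and others) were found in the Schwann-like sums of these 10 mice, at 31600 to 43700 UMIs per 1000000. The largest cluster of low depth, with 2265 cells (median 496 UMIs), stayed unnamed because 1 of 12 neuroblast markers and no other list marked it. Levels below are UMIs of a gene per 1000000 UMIs of the class in a mouse (CPM), and levels of different genes are not compared with each other.

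Sox10, the transcription factor that specifies and maintains the glial lineage, had its highest level in Schwann-like cells in each of the 10 mice. It ran from 194 to 718 CPM (median 251, mean 312 ± 154 SD, n = 10 mice) there. In neuroblast-like cells it ran from 0 to 2.68 CPM (median 0.849), 13 UMIs in 2712 cells against 711 UMIs in 2228 Schwann-like cells. The ranges did not overlap, and mouse 7 was the highest Schwann-like value, with the next at 398 CPM. In ganglion-like cells Sox10 ran from 0 to 10.3 CPM (median 4.61), again below every Schwann-like value.

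Foxd3, a forkhead factor of early crest and of precursors, and Sox2, a SOX factor kept in precursors and immature Schwann cells, followed the same order. Foxd3 ran from 0 to 121 CPM (median 63.3) in Schwann-like cells, from 0 to 1.34 CPM (median 0) in neuroblast-like cells and from 0 to 18.5 CPM (median 2.33) in ganglion-like cells. Sox2 ran from 0 to 230 CPM (median 112) in Schwann-like, 0 to 1.34 (median 0) in neuroblast-like and 0 to 16.7 CPM (median 2.66) in ganglion-like cells. The 0 in Schwann-like cells was mouse 2 for both genes, whose 12 cells held 6379 UMIs in all. In the other 9 mice Foxd3 and Sox2 were higher in Schwann-like than in neuroblast-like cells in each mouse.

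Erbb3, the neuregulin receptor of the Schwann lineage, ran from 0 to 251 CPM (median 128) in Schwann-like cells, from 0 to 1.95 CPM (median 0, 4 UMIs) in neuroblast-like cells and from 0 to 27.7 CPM (median 2.21) in ganglion-like cells. S100b, a calcium-binding protein of glia, ran from 0 to 260 CPM (median 188), from 0 to 5.85 CPM (median 1.29) and from 0 to 25 CPM (median 6.83) in the same order of classes. Mouse 2 was again the only mouse at 0 in Schwann-like cells for both genes, and its next neighbour was at 141 CPM of S100b. The highest neuroblast-like value of either gene was below the lowest Schwann-like value of the other 9 mice.

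Zeb2, a zinc-finger repressor of transcription that acts in crest migration and Schwann cell maturation, is also expressed by macrophages. It was also counted in classes other than glia. It ran from 157 to 397 CPM (median 282, mean 283 ± 66.2) in Schwann-like cells, from 91.7 to 872 CPM (median 350, mean 432 ± 298, n = 7 mice) in myofibroblast-like cells and from 86.1 to 227 CPM (median 166, mean 150 ± 50.8, n = 9) in macrophage-like cells. These 3 classes overlapped, and the myofibroblast-like and macrophage-like levels rest on 36 and 45 UMIs. In neuroblast-like cells Zeb2 ran from 4.2 to 106 CPM (median 8.08), where 106 was mouse 2 with 3 UMIs and the next was 13.3, and in ganglion-like cells from 0 to 24.2 CPM (median 11.5). Both ranges lay below every Schwann-like value. In the 38 neuroblast-like cells of mouse 2 the Schwann markers were at 5680 CPM, against a median of 306 over the 10 mice, and their part in its Zeb2 level was not tested.

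The AP-2 genes divided. Tfap2a, which encodes AP-2 alpha of early crest, was rare everywhere: 29 UMIs in Schwann-like cells (0 to 20.2 CPM, median 11.6, at 0 in mice 2 and 6), 3 in neuroblast-like and 3 in ganglion-like cells. Tfap2b was the only one of the 8 with its highest level in neuroblast-like cells, from 176 to 782 CPM (median 550, mean 523 ± 159). It ran from 78.1 to 228 CPM (median 160, mean 158 ± 44.4) in ganglion-like cells and from 0 to 93 CPM (median 11.8) in Schwann-like cells. Every neuroblast-like value was above every Schwann-like value, and the neuroblast-like and ganglion-like ranges overlapped through mouse 2 at 176 CPM, although neuroblast-like was above ganglion-like within each of the 10 mice.

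**Figure D1:**
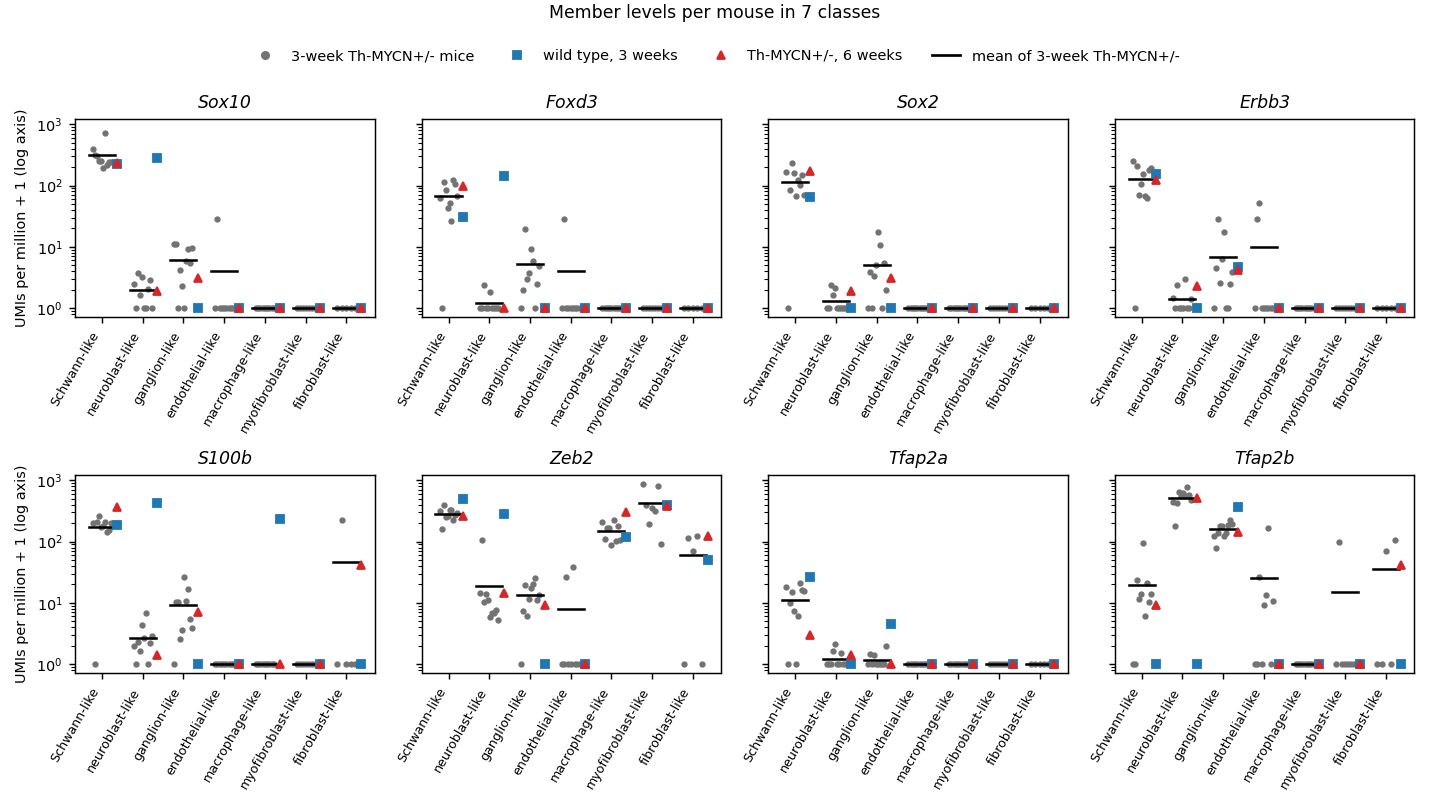
Level of each of the 8 genes (CPM, UMIs per 1000000 UMIs of the class) in 7 cell classes. Each point is 1 mouse, with the WT and 6-week mice marked apart from the 10 Th-MYCN+/- mice of 3 weeks. Sox10, Foxd3, Sox2, Erbb3 and S100b were high in Schwann-like cells, Zeb2 also in myofibroblast-like and macrophage-like cells, and Tfap2b in neuroblast-like and then ganglion-like cells.

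The order of the remaining classes was set by few counts. Sox10 had 0 UMIs in macrophage-like, myofibroblast-like and fibroblast-like cells and 1 UMI in endothelial-like cells. S100b in fibroblast-like cells rested on 2 UMIs, both in 1 of 5 mice. Tfap2b in endothelial-like cells was at 24.6 ± 53.4 CPM (8 UMIs, n = 9 mice), a spread wider than its mean. With mouse 2 included, classes next to each other in the order overlapped in range for all 8 genes, apart from Schwann-like against ganglion-like for Sox10. For Foxd3, Sox2 and Erbb3 the Schwann-like overlap came only from mouse 2 at 0. The lowest Schwann-like values of the other 9 mice were 25.6, 67.6 and 60.6 CPM. The highest values of the next class were 18.5 and 16.7 CPM (ganglion-like) and 51.6 CPM (endothelial-like).

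The comparison of glia with neuroblasts was tested over mice, with UMIs summed per mouse and class in edgeR's quasi-likelihood test (Benjamini-Hochberg adjusted, mouse as a block). Sox10 was higher in Schwann-like cells by 8.15 on the log2 scale (SE 0.28, adjusted p = 3.83e-14, 10 of 10 mice) and Zeb2 by 5.31 (SE 0.25, adjusted p = 1.24e-12, 10 of 10). Tfap2b was lower, with a log2 difference of -4.83 (SE 0.28, adjusted p = 2.19e-11, 10 of 10). These 3 genes were the members that passed the filter on low counts, which asks for a count in as many sums as there are mice, and all 3 were called where 69.4% of 5528 tested genes were called (31.1% higher and 38.3% lower in Schwann-like cells). The classes differ across most of the genes tested, so the count of calls says little beside the size of the differences. Sox10 and Zeb2 passed the filter only through their Schwann-like sums, and Tfap2b only through its neuroblast-like sums. The direction of all 3 in this test was therefore set by the filter, and the calls add no support to it.

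The other 5 genes did not pass the filter. Foxd3, Sox2, Erbb3 and S100b were at 0 in the 12 Schwann-like cells of mouse 2 and passed it without that mouse, and Tfap2a did not pass it either way. Without mouse 2, 7 genes were tested, 6 of them higher in Schwann-like cells, where 34% of 6182 genes were higher (69.8% in either direction). The differences were 8.63 (SE 0.36) for Sox2, 8.26 (SE 0.39) for Foxd3, 8.63 (SE 0.34) for Erbb3 and 7.12 (SE 0.29) for S100b on the log2 scale, with adjusted p from 4.51e-13 to 4.16e-12 in edgeR's test. Sox10, Foxd3, Sox2, Erbb3 and S100b had only 2 to 19 UMIs each in neuroblast-like sums. They could pass the filter only through their Schwann-like sums. Their direction in the filtered tests was therefore set by the filter, and these calls add no support to it. With no filter, in all 10 mice, all 7 genes other than Tfap2b were higher (18.4% of 18782 genes were, and 41.2% were called in either direction), Tfap2a by 5.01 (SE 0.71, adjusted p = 1.25e-11). Such log2 values against near 0 counts depend on the small count that the fit adds, so ratios of the pooled counts are given next.

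Pooled over the 10 mice, the Schwann-like level of Sox10 was 297 times the neuroblast-like level (95% interval 173 to 561, counting error only). The ratio was 489 for Foxd3 (134 to 4070), 615 for Sox2 (208 to 2990), 454 for Erbb3 (176 to 1680) and 140 for S100b (88.5 to 234). It was 35 for Zeb2 (28.5 to 43.2) and 52.6 for Tfap2a (16.3 to 270). For Tfap2b the neuroblast-like level was 35.9 times the Schwann-like level (26.2 to 50.8). The intervals of Sox10, Foxd3, Sox2 and Erbb3 overlapped one another widely, whereas that of Zeb2 lay below those of the 5 glial genes.

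**Figure D2:**
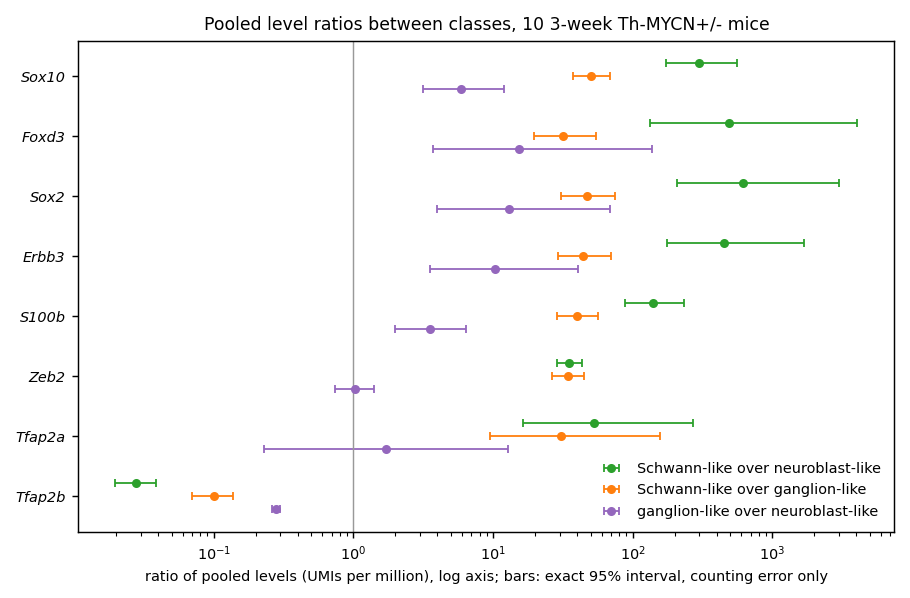
Ratio of pooled levels between classes for each gene over the 10 Th-MYCN+/- mice of 3 weeks, on a log axis, with 95% intervals from counts. Ratios of Schwann-like to neuroblast-like cells run from 35 for Zeb2 to 615 for Sox2, and Tfap2b lies on the other side of 1.

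The few glial UMIs in neuroblast-like cells were set beside those of the Schwann marker list in the same cells. The list was there at 0.7% of its Schwann-like level. Sox10 was at 0.336%, Foxd3 at 0.204%, Sox2 at 0.163%, Erbb3 at 0.22% and S100b at 0.716% of theirs. S100b was thus level with the marker list and the other 4 were below it in value. Foxd3, Sox2 and Erbb3 rested on 2, 3 and 4 UMIs, and the counting interval of Foxd3 reached above the list. The list was at 278 CPM in the neuroblast-like class of the 10 mice, and at 188 CPM in the cells of all mice that a second clustering also placed in that class. Zeb2 was at 2.86% and Tfap2a, with 3 UMIs, at 1.9%. In ganglion-like cells the list was at 3.12%, and the 7 genes other than Tfap2b ran from 1.99% (Sox10) to 3.26% (Tfap2a). In the other direction, Tfap2b in Schwann-like cells was at 2.78% of its neuroblast-like level, where the neuroblast marker list was at 12.7%.

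Against ganglion-like cells, the mature neurons of the ganglion, Sox10 was higher in Schwann-like cells by 5.94 (SE 0.29, adjusted p = 5.1e-14) and Zeb2 by 4.9 (SE 0.24, adjusted p = 6.76e-14) on the log2 scale. Tfap2b was lower, at -3.17 (SE 0.33, adjusted p = 1.39e-08), each in 10 of 10 mice. These were again the 3 members that passed the filter, where 69% of 3226 genes were called (34.1% higher, 34.9% lower). Without mouse 2, Sox2 (5.5), S100b (5.56) and Erbb3 (5.16) also passed the filter, through their Schwann-like sums, and were higher. This made 5 members higher, where 32.8% of 3425 genes were (72% in either direction). For Sox2, S100b and Erbb3 the filter had set that direction. The same holds for Sox10 and Zeb2, which passed it only through their Schwann-like sums. It also holds for Tfap2b, which passed only through its ganglion-like sums. These calls therefore add no support to the directions. With no filter all 7 members other than Tfap2b were higher, where 17.4% of 17898 genes were (38.8% in either direction). Pooled ratios to ganglion-like cells were 50.2 for Sox10 (37.1 to 69.4), 31.8 for Foxd3 (19.5 to 54.8), 46.8 for Sox2 (30.7 to 74.9), 44.2 for Erbb3 (29.2 to 70) and 39.7 for S100b (28.7 to 56.6).

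Between ganglion-like and neuroblast-like cells, Tfap2b was the only member that passed the filter. It was lower in ganglion-like cells, with a log2 difference of -1.73 (SE 0.15, adjusted p = 4.51e-09, 10 of 10 mice), where 66.8% of 7127 genes were called, 31.8% as higher and 35% as lower. The pooled neuroblast-like level was 3.58 times the ganglion-like level (3.37 to 3.81). With no filter, 5 members were higher in ganglion-like cells, where 16.3% of 19146 genes were (39.8% in either direction): Sox10 by 1.93, Foxd3 by 3.53, Sox2 by 2.81, Erbb3 by 3.06 and S100b by 1.36, with adjusted p from 0.000216 to 0.0325. As given above, those 5 genes were in ganglion-like cells at 1.99% to 3.15% of their Schwann-like levels, beside 3.12% for the Schwann marker list. Zeb2 was at 0.00 (SE 0.35, adjusted p = 0.995) there.

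**Figure D3:**
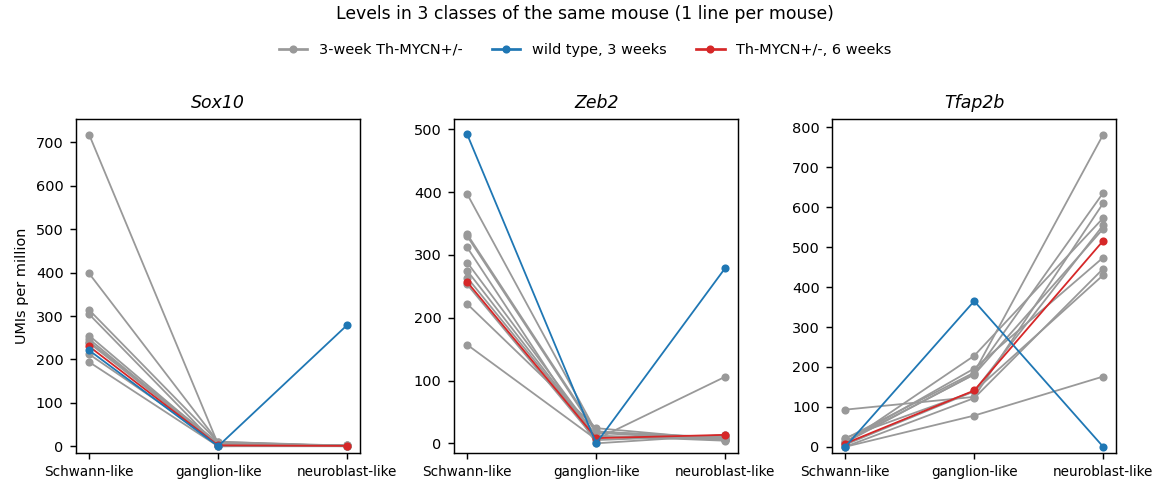
Level (CPM) of the genes within each of the 10 Th-MYCN+/- mice of 3 weeks, with the classes of 1 mouse joined by a line. Sox10 drops from Schwann-like to neuroblast-like cells in all 10 mice, and Tfap2b is highest in the neuroblast-like cells of all 10.

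In single cells the genes were sparse, and shares of cells with a UMI were taken after thinning every cell to 500 UMIs, since depth differed (median 1137 UMIs in Schwann-like, 4420 in neuroblast-like and 1339 in ganglion-like cells). Of 1829 Schwann-like cells in the 3-week Th-MYCN+/- mice (399 shallower cells left out), 11.4% held a Sox10 UMI, 13.1% Zeb2, 10.1% S100b, 6.4% Sox2, 6.12% Erbb3 and 3.44% Foxd3. Of 2653 neuroblast-like cells 0.151% held Sox10, 0.528% Zeb2 and 23% Tfap2b. Tfap2b was in 5.97% of 2045 ganglion-like and 0.273% of Schwann-like cells. Endothelial-like cells, taken as the class that should lack the glial genes, held Sox10 in 0 of 302 cells (a count of 0 there allows up to 0.993%), and their Tfap2b share was 0.993% (3 cells). The Tfap2b share in Schwann-like cells was below the endothelial-like share. The Sox10 share in neuroblast-like cells was under what a count of 0 in 302 cells allows, so at this number of cells it could not be told apart from that class. Without thinning, 22% of Schwann-like cells held Sox10 and 79.4% of neuroblast-like cells held Tfap2b.

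At least 1 of the 5 glial genes (Sox10, Foxd3, Sox2, Erbb3, S100b) was counted in 33% of the thinned Schwann-like cells, 32.6% ± 4.9 over 9 mice. The shares were 0.302% of neuroblast-like, 1.66% of ganglion-like and 0.331% of endothelial-like cells. Taken over 10 mice, the ganglion-like share was 2.7% ± 2.91. At least 2 of them were counted in 4.16% of Schwann-like cells (76 cells) and at least 3 in 6 cells. At this depth most Schwann-like cells showed none of the 5. Before thinning, 48.2% ± 12.7 over 10 mice showed at least 1.

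**Figure D4:**
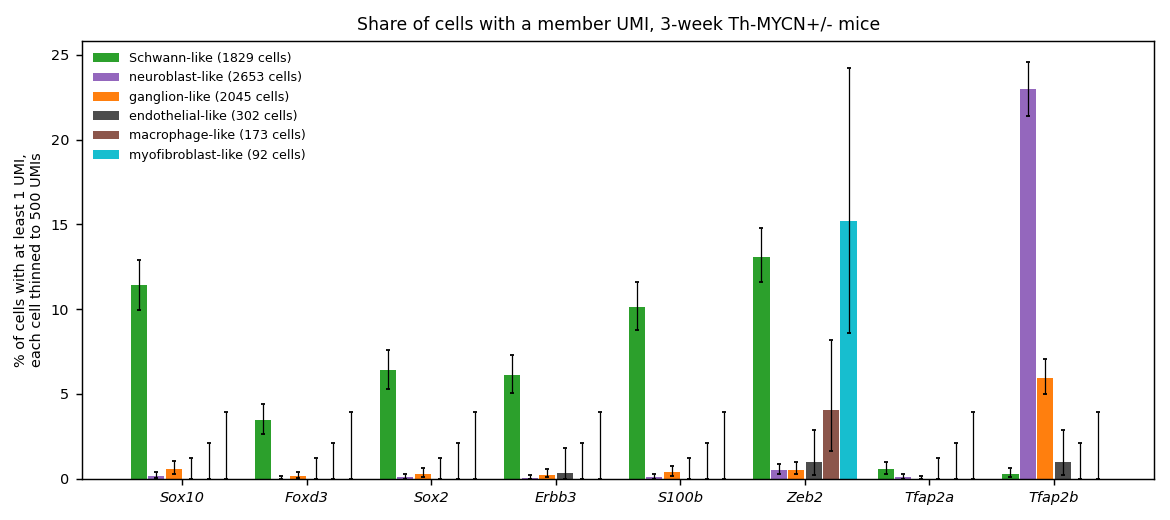
Percent of cells with a UMI of each gene in the 3-week Th-MYCN+/- mice after every cell was thinned to 500 UMIs. Sox10 is found in 11.4% of Schwann-like and 0.151% of neuroblast-like cells, and Tfap2b in 0.273% and 23%.

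Neuroblast-like cells that carried glial genes were looked for directly. Among 2712 such cells of the 3-week Th-MYCN+/- mice, 3 (0.111%) held UMIs of at least 2 of the 5 glial genes. In the 6-week mouse the count was 0 of 259 cells. Of the 3 cells, 1 held Tfap2b and 2 held human MYCN. A second clustering placed 1 of the 3 in its Schwann-like class. Scrublet, a score of barcodes that may hold 2 cells (doublets), marked 2 of the 3 and 11 of the other 2709. It marked only 0.383% of all cells and is taken not to have worked, so no weight is put on these marks. The 3 cells had a median of 11 UMIs of Schwann markers and 61 of neuroblast markers, against 0 and 72 in the others. Whether they are doublets was not tested.

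A second clustering, on log-normalized counts without regression, placed 76 of the neuroblast-like cells in its Schwann-like class, 68 of them from the cycling cluster. These 76 cells (median 367.5 UMIs) had Schwann markers at 32100 CPM and neuroblast markers at 3380. Sox10 was at 186 CPM (95% interval 75 to 384, 7 UMIs), Zeb2 at 400 (224 to 659, 15 UMIs) and Tfap2b at 0 UMIs. S100b had 7 UMIs, Sox2 3, Foxd3 and Erbb3 2 each and Tfap2a 0. In the 2851 cells that were neuroblast-like in both, Sox10 was at 0.723 CPM, Zeb2 at 8.82 CPM (122 UMIs) and Tfap2b at 602 CPM. Levels in the unnamed low-depth cluster followed the neuroblast-like pattern: Tfap2b was at 411 ± 121 CPM over the 10 mice and human MYCN at 229 ± 115, with 5 UMIs of Sox10 in 2136 cells.

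Within neuroblast-like cells, those called in S or G2M phase were compared with those called in G1. Tfap2b was at 529 ± 155 CPM in the cycling calls and 521 ± 216 in G1, a log2 difference of -0.07 (SE 0.13, adjusted p = 0.976, edgeR), where 35.2% of 5491 genes were called, 15.2% as higher and 19.9% as lower. No other member passed the filter. When only cells that were neuroblast-like in both clusterings were kept, a choice made after seeing the data, the difference was -0.26 (SE 0.09, adjusted p = 0.0279, edgeR), so the call depends on which cells are counted as neuroblasts.

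Within glia, the largest Schwann-like cluster was compared with the second, which was led by the early response genes Ccn1, Socs3, Fos, Junb and Egr1, in the 8 mice with enough cells of both. No member passed the test, where 2.48% of 1936 genes did (0.465% higher and 2.01% lower in the largest). Erbb3 was at 162 ± 83.5 against 88.8 ± 69.3 CPM, a log2 difference of 0.94 (SE 0.26, adjusted p = 0.0685, edgeR) with 7 of 8 mice higher in the largest cluster, and it passed only with no filter (1.12, adjusted p = 0.0161), where 0.409% of 14902 genes were higher and 0.852% were called. The differences of the other members tested were 0.17 for Sox10, -0.32 for Sox2, -0.06 for S100b and -0.07 for Zeb2. The remaining Schwann-like cluster, of 30 cells, had the myelin gene Prx among its leading genes and was too small to test.

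Other genes of the same processes were counted in the glia against neuroblast comparison. Unlike the 8 genes, they were not left out of clustering and could have helped to make the classes. Their calls are therefore descriptions. Of 22 further crest genes 4 passed the filter and all 4 were higher in Schwann-like cells, where 31.1% of the 5528 genes tested were: Ednrb, the endothelin receptor of migrating crest, by 7.78, Rxrg, a retinoid receptor, by 7.44, and the HLH inhibitors Id3 by 6.24 and Id2 by 1.53. Among the crest genes under the filter, Pax3, Pax7 and Msx2 had 0 UMIs in both classes, whereas Sox5 had 63 UMIs in Schwann-like and 44 in neuroblast-like cells and Ets1 20 and 1. These 5 were named after their values were seen. The median of the 4 crest genes tested was 6.84, against -0.13 over all genes tested. A gene near 0 in neuroblast-like cells passes the filter only if it is high in Schwann-like cells. This median therefore does not stand for the whole list.

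Of 18 genes of precursors and immature Schwann cells 14 were tested, 11 higher and 2 lower, with a median of 4.11. Of all genes tested 31.1% were higher and 38.3% lower. The limits given for the crest genes, on the filter and on clustering, hold for this list too. Dhh, the hedgehog ligand of Schwann cells, was higher by 8.08, the membrane protein gene Mal by 7.89, Ttyh1 by 7.58, Cdh19, a cadherin of precursors, by 6.59 and Postn by 6.35. Of the 2 lower, Gap43, a growth-cone protein, was at -3.43 and Gfra3, a receptor of the GDNF family, at -1.31. Against ganglion-like cells, 12 of the 18 were tested, 9 higher and 1 lower (Gap43, -4.14), where 34.1% of all genes tested were higher and 34.9% lower.

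Of 15 genes of the neuregulin and ERBB system only Hbegf, an EGF family ligand, passed the filter, and it was higher in Schwann-like cells by 4.46 (SE 0.3), as were 31.1% of all genes tested. Erbb2, the partner with which ERBB3 signals, had 73 UMIs in Schwann-like, 4 in neuroblast-like and 6 in ganglion-like cells, so its counts lay on the same side as those of Erbb3. The ligand Nrg1 had 1 UMI in Schwann-like, 84 in neuroblast-like and 117 in ganglion-like cells. Both were named after their values were seen and neither was tested. Of 19 relatives of the 8 genes 9 were tested, 6 higher and 3 lower (median 3.45), where 31.1% of all genes tested were higher and 38.3% lower. The S100 genes S100a16 (7.34), S100a1 (5.52), S100a6 (5.08) and S100a13 (4.41) were higher in Schwann-like cells. Sox11, a SOX factor of neuronal progenitors, was lower, at -4.4. The same limits on the filter and on clustering hold for Hbegf and for these relatives.

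The genes most like each member in level were found over 75 sums of a mouse and class (Pearson's r of log2(CPM + 10), which share libraries and depth). For Sox10 they were Gm2115 (0.958), Reln (0.952) and Kcna1 (0.949), and for Foxd3 Sox3 (0.945), Gal3st1 (0.939) and Slc35f1 (0.927). For Sox2 they were Ccdc13 (0.973), Hepacam (0.963) and Itgb8 (0.959), and for Erbb3 Gpd1 (0.928), Mlip (0.924) and Hepacam (0.916). S100b was most like Gal3st1 (0.873), Gjc3 (0.864) and Matn4 (0.854). Zeb2 had weaker neighbours, Serpine2 (0.802), Lamp1 (0.786) and Cd63 (0.785), and Tfap2b was most like Mab21l2 (0.923), Isl1 (0.921) and Cnih2 (0.915). Among the members, the 5 glial genes had r of 0.759 to 0.908 with each other, Zeb2 had 0.445 with Sox10, and Zeb2 and Tfap2b had -0.501. Tfap2a had too few UMIs for this.

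Across conditions, each single mouse is set beside the range of the 10 Th-MYCN+/- mice of 3 weeks, with intervals for counting error only. In Schwann-like cells of the WT mouse (356 cells) Sox10 was at 221 CPM (165 to 289), Foxd3 at 29.7, Sox2 at 63.6, Erbb3 at 153 and S100b at 187, each within the range of the 10. Sox2 lay within it only through mouse 2 at 0: without mouse 2 the range was 67.6 to 230 CPM and WT was below it, with a counting interval (35.6 to 105) that reached into it. Zeb2 was at 492 CPM (407 to 590, 116 UMIs), above the highest of the 10 (397), and Tfap2a at 25.4 CPM (9.34 to 55.4, 6 UMIs), above 20.2 but with an interval that reached below it. Tfap2b was at 0 UMIs, which allows up to 12.7 CPM.

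In Schwann-like cells of the 6-week mouse (340 cells) S100b was at 363 CPM (311 to 420, 178 UMIs), above the highest of the 10 (260). Sox10 was at 230 CPM, Foxd3 at 97.8, Sox2 at 171, Erbb3 at 120, Zeb2 at 257, Tfap2a at 2.04 and Tfap2b at 8.15 CPM, all within the range of the 10. These 2 mice differ from the 10 in genotype or age and are each 1 library, so the condition, the mouse and the library cannot be told apart.

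**Figure D5:**
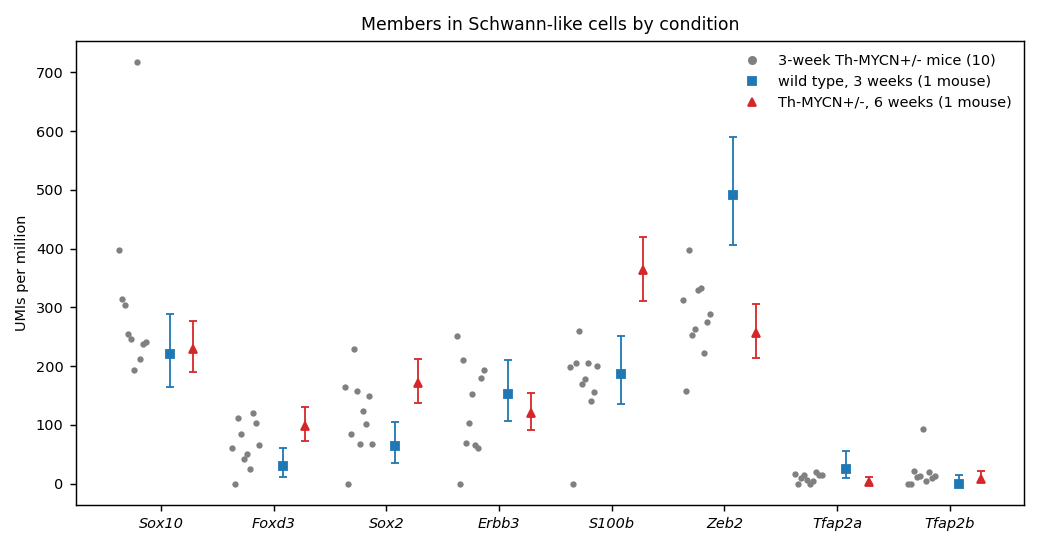
Level (CPM) of each gene in Schwann-like cells of the WT mouse, the 10 Th-MYCN+/- mice of 3 weeks and the 6-week Th-MYCN+/- mouse, with 95% counting intervals for the 2 single mice. WT lies above the 10 for Zeb2 and Tfap2a, and the 6-week mouse for S100b.

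In ganglion-like cells Tfap2b was at 365 CPM in WT (297 to 443, 101 UMIs in 86 cells), above the highest of the 10 (228), and at 141 CPM (118 to 166) in the 6-week mouse, within their range. Tfap2a in WT, with 1 UMI, was also above the 10. Neuroblast-like cells of the 6-week mouse (259 cells) had Tfap2b at 516 CPM (487 to 546), Zeb2 at 13.5 (9.16 to 19.1) and Sox10 at 0.87, all within the range of the 10. Without mouse 2 the highest neuroblast-like Zeb2 value of the others was 13.3 CPM, just under that of the 6-week mouse. The WT library had 22 cells in the neuroblast-like class, and these went against its name. They held Schwann markers at 29900 CPM and neuroblast markers at 838, Sox10 at 279 CPM (33.8 to 1010, 2 UMIs), S100b at 419 (3 UMIs), and 0 UMIs of Tfap2b and of human MYCN among 7160 UMIs. All 22 were Schwann-like in the second clustering, so no neuroblast level is given for WT.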

How the data were processed

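The SMGs were dissociated and single-cell libraries were made with the Chromium Single Cell 3' kit. The authors aligned the reads with Cell Ranger to mm10 extended by the human MYCN sequence and deposited unfiltered UMI counts per gene and barcode, with 3.0.2 as the software version in the matrix headers. The annotation release was not given in the sources used here. These counts are whole numbers with no normalization.

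Barcodes were called as cells against droplets of at most 100 UMIs (10000 Monte Carlo draws, FDR 0.01), giving 16165 barcodes. Barcodes with under 200 genes (4036), over 10% mitochondrial UMIs (223) or over 60% ribosomal UMIs were left out, leaving 12011 cells. Cells were normalized with SCTransform, with depth, mitochondrial, ribosomal and cell cycle scores regressed out, and clustered (30 principal components, resolution 0.5) without the 8 genes, the transgene or spike features. Each of 15 clusters was named when at least 50% and at least 3 of a class's markers were 1.5 times higher in it and found in 10% of its cells. Doublets were not removed: Scrublet marked 46 cells (0.383%) and is taken not to have worked. Class names were rebuilt here, so differences from the study's classes may come from that.

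UMIs were summed per mouse and class (at least 10 cells) and tested over the 10 3-week Th-MYCN+/- mice with edgeR 4.0.16 (filterByExpr, TMM, glmQLFTest), FDR 0.05, with the mouse as a block, since both classes came from the same library. Samples of 1 mouse deviated together in all 10 mice in Schwann-like against neuroblast-like (r 0.0366 to 0.196). Each library is 1 mouse per the labels, which give no litter or batch. Shares of cells were computed after thinning to 500 UMIs. Intervals are 95% exact Poisson, Clopper-Pearson or conditional binomial ones and cover counting error only, and a count of 0 is given a limit of 3 counts. The count test was tried on simulated data.

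The 8 genes and the gene lists were chosen with earlier results of these data known. All 8 genes were named in every comparison. From each other list, the up to 5 genes with the largest log2 difference past FDR 0.05 in Schwann-like against neuroblast-like cells were named, and for each of the 8 genes with at least 100 UMIs the 3 genes of highest correlation. Alternatives were RLE scaling, DESeq2 1.42.0, no filter, no block, other cell filters, another clustering, subtraction of free RNA, other thinning and leaving out each mouse. Software was Python 3.11.15, numpy 2.4.6, scipy 1.17.1, pandas 2.3.3, scanpy 1.11.5, matplotlib 3.10.9, R 4.3.3, Seurat 5.3.0, sctransform 0.4.2 and limma 3.58.1. Genome positions are from the GENCODE annotation of GRCm38.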

Additional observations from a re-analysis of the deposited data

Results flagged for a closer look

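In 18 groups of 7 to 10 mice with at least 20 UMIs of a gene, the highest or lowest was compared with the rest. Dixon's criterion was used, which chance passes in about 1 group in 20. Sox10 in Schwann-like cells was at 718 CPM in mouse 7 (140 UMIs) against 398 in the next mouse. S100b in Schwann-like cells was at 0 in mouse 2, which had 12 such cells, against 141 in the next lowest. Tfap2b in Schwann-like cells was at 93 CPM in mouse 6 (11 UMIs) against 22.3 in the next. In the same cells of mouse 6 human MYCN was at 144 CPM and the neuroblast markers were at 5040 CPM, the highest of the 10 mice. Zeb2 in neuroblast-like cells was at 106 CPM in mouse 2 (3 UMIs) against 13.3 in the next.

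The WT mouse went the opposite way from each of the 10 Th-MYCN+/- mice of 3 weeks in 2 differences between classes, and neither was tested. For Sox10, Schwann-like minus neuroblast-like cells was -58 CPM in WT, on 2 UMIs in its 22 neuroblast-like cells, against 194 to 718 CPM in the 10 mice. For Tfap2b, ganglion-like minus neuroblast-like cells was 365 CPM in WT against -596 to -97.9 CPM. Both rest on the 22 WT cells that went against the name of their class.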

How the results depend on the processing

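Of 576 values recomputed under an alternative, no difference of a gene changed sign where either value was called. Counts, shares and levels could not reverse, and of the 576 values 19 main and 16 other ones moved and 2 grew stronger. Differences that were not called did change sign. Between the Schwann-like clusters, for example, Sox10 ran from -0.15 to 0.4 and Sox2 from -0.47 to 0.06. With no filter on low counts the number of genes called was 7740 (Schwann-like against neuroblast-like), 6938 (Schwann-like against ganglion-like), 7627 (ganglion-like against neuroblast-like), 3254 (cycling against G1 calls) and 127 (largest against second Schwann-like cluster), and the members higher were 7, 7, 5, 0 and 1. Members higher in Schwann-like cells were 6 against neuroblast-like and 5 against ganglion-like cells with at least 500 UMIs per barcode, and 5 and 5 when cells needed 500 genes and no more than 5% of UMIs could be mitochondrial. With free RNA subtracted 0 members were lower against ganglion-like cells, since Tfap2b no longer passed the filter. In cells that were neuroblast-like in both clusterings, an alternative chosen after seeing the data, 1 member (Tfap2b) was lower in cycling calls. The share of Schwann-like cells with at least 1 of the 5 glial genes was 52.1% at 1000 UMIs and 48.2% without thinning. Leaving out 1 mouse at a time, genes called ran from 3333 to 4317, 2001 to 2676, 4332 to 4973, 1429 to 2134 and 36 to 56 in the order above, and members higher in Schwann-like cells from 2 to 6 and 2 to 5, the highest without mouse 2. Without the replicate block, 3775 and 2131 genes were called in the Schwann-like comparisons and 4854, 1652 and 36 in the others, and no call of a member changed. Over the alternatives the Sox10 difference from neuroblast-like cells ran from 7.48 to 9.81, that of Zeb2 from 5.04 to 5.87 and that of Tfap2b from -7.57 to -4.6. Under RLE scaling 52.7% of calls in the phase comparison were higher, against 43.3% with TMM, and the median of all genes in Schwann-like against ganglion-like cells was -0.14 against -0.02. Genes with few UMIs per class, above all Tfap2a, are limited by depth.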

Other observations

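Further genes of the crest and related lists differed between the sympathetic classes themselves, and the genes named here were chosen after their values were seen. Like the rest of those lists, they were not left out of clustering. In ganglion-like against neuroblast-like cells, Ngfr, the low-affinity neurotrophin receptor that is also a marker of crest cells, was higher by 4.64 on the log2 scale (SE 0.38, adjusted p = 1.77e-09, edgeR), at 657 ± 143 against 42.9 ± 49.9 CPM. It was at 19.7 ± 12.1 CPM in Schwann-like cells, a log2 difference of -4.6 from ganglion-like cells (adjusted p = 1.64e-14, edgeR). Sox11 and Sox4, SOX factors of differentiating neurons, were lower in ganglion-like than in neuroblast-like cells, at -3.1 and -2.06, and neuroblast-like cells in cycling calls had more Sox11 than those in G1 calls, by 0.9 (SE 0.12, adjusted p = 7.24e-06). Id3 was higher in ganglion-like cells by 2.48 and lower in cycling neuroblast-like calls, at -1.98 (adjusted p = 1.05e-05).

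Between the clusters of Schwann-like cells Jun, a factor of immature and injured Schwann cells and of the early response to stress, was lower in the largest cluster, at -2.75 (SE 0.12, adjusted p = 5.89e-13, edgeR). Of the 14 precursor genes tested in that comparison it was the only one called, where 2.48% of all genes were. The second cluster was itself led by early response genes, and its genes were used to make the clusters, so this is a description.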
